A study of Homo sapiens with 6 samples.

Results

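Glycosaminoglycans are long sugar chains that cartilage cells make in bulk. Chondroitin, dermatan and heparan sulfate are built on a short linker of xylose, galactose and glucuronic acid attached to a core protein, lengthened by polymerases in the Golgi and then sulfated and epimerised. Hyaluronan is made without a core protein or sulfate by synthases in the plasma membrane. In cartilage, chondroitin sulfate on aggrecan holds water, and heparan sulfate binds growth factors.

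The 44 genes described here encode enzymes and transporters of these pathways, and a heparan-degrading enzyme. They were matched to a list by gene symbol, and all 44 were found among the 60691 genes of the table. The match used no measured value, but the list was chosen with earlier results of these data known. No test of the list was made for that reason. By role, 6 build the linker, 6 start or lengthen chondroitin and 9 sulfate or epimerise chondroitin and dermatan. Another 4 start or lengthen heparan or act on its linker, 8 modify heparan and 3 remodel finished heparan chains. The rest supply precursors (6) or make hyaluronan (2). The cells were SW1353, an established human chondrosarcoma line, kept for 48 h after seeding in 3% oxygen and infected with lentivirus in every group. In 3 libraries, named shfirefly, the virus carried a hairpin RNA against firefly luciferase, which human cells lack. In the other 3, named shSIRT1, its hairpin was, by the labels, aimed at SIRT1, which encodes a deacetylase that consumes NAD+. The study asked how SIRT1 relates to transcription by the hypoxia factor HIF-2α, encoded by EPAS1. The design text calls the samples of a group biological replicates, but all come from 1 cell line, and the labels do not say how many hairpin sequences were used per group.

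Libraries held 24993064 to 32044191 counts, so a count of 0 allows up to 0.0968 to 0.115 CPM (read counts brought to a common, scaled library size), taking 3 counts as the upper limit and counting error alone. TMM factors, which correct for the makeup of each library, were 0.948 to 0.970 in shfirefly and 1.04 to 1.05 in shSIRT1. SIRT1 fell from 24.9 ± 0.984 to 13.6 ± 0.953 CPM and EPAS1 from 456 ± 40.8 to 233 ± 10.5 CPM (SD, n = 3; edgeR adjusted p = 2.3e-09 and 5.8e-07). The treatment protocol names EPAS1 as the hairpin target while all other labels name SIRT1, and both genes fell. Of 9 chondrocyte markers, SOX9, the master regulator of cartilage, was at 41.6 CPM or more in every library. COL2A1 stayed at 0.620 CPM or less, COL9A1 and CNMD were at 0, COMP reached 0.163 CPM at most, COL11A2 1.11 CPM and ACAN, the aggrecan core, 1.82 CPM. COL2A1 had 2, 1 and 0 reads in shfirefly and 8, 19 and 3 in shSIRT1, too few to be tested here. In the authors' DESeq2 comparison it rose (log2 fold change 3.30, adjusted p = 0.018). The matrix genes MATN3 (3.61 to 5.12 CPM) and HAPLN1 (3.69 to 8.77 CPM) were detected in every library. Of the 5 markers tested, ACAN and HAPLN1 fell (log2 fold change -1.16 and -0.91) and SOX9 and MATN3 rose (0.28 and 0.35), with edgeR adjusted p = 0.0018, 1.9e-06, 1.0e-04 and 0.032. The 4 epithelial markers summed to 0.444 to 1.01 CPM in shfirefly and 0.458 to 1.34 CPM in shSIRT1, and the 5 leukocyte markers to 0.516 to 0.749 and 0.326 to 0.750 CPM. The 4 endothelial markers summed to 2.81 to 3.87 and 1.87 to 2.51 CPM, and the 5 mesenchymal markers, 4 of which fell, to 31221 to 34543 and 19539 to 20591 CPM. The part of these markers in the results was not tested. In such bulk samples, fewer cells of a type and less RNA per cell cannot be told apart.

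CHSY1, SLC26A2, CHST7 and HAS2 changed most among the members with a mean of at least 1 CPM that passed the test. CHSY1, a chondroitin polymerase, fell 2.00-fold in shSIRT1, while the sulfate transporter SLC26A2 rose 1.79-fold and the chondroitin sulfotransferase CHST7 rose 3.47-fold from a low level. HAS2, a hyaluronan synthase, fell 1.64-fold, also at a low level. The other members called were shifted by 1.29-fold or less, except HS3ST1, which rests on few reads. Heparan chain genes moved in both directions by small amounts. Of 7 tested heparan modifiers 3 rose, HS3ST1 among them (42.9%, beside 26.8% of all genes). None of them fell, beside 26.0% of all genes.

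Of 44 members, 42 passed the filter on low counts, 11 rose and 15 fell, and 16 did not pass the test (adjusted p from 0.052 to 0.85, quasi-likelihood test of edgeR, Benjamini-Hochberg over all genes). NDST2 and SULF1 were not tested. The share called was 61.9%, beside 52.8% of all 16591 genes tested. By direction, 26.2% of the tested members rose and 35.7% fell, beside 26.8% and 26.0% of all genes. A call together with a log2 fold change of at least 0.5 in size was made for 5 members (11.9%), beside 21.0% of all genes, so changes of that size were not frequent here. The groups were fully separate in CPM for 30 of the 42 (71.4%), beside 59.7% of all genes. The median log2 fold change was -0.04 over the members and 0.00 over all genes. With library totals in place of TMM scaling, the median of all genes moved to 0.13, that of the members to 0.08, and the split was 16 higher and 8 lower. Relative to the median of all genes the members' median was -0.05 under either scaling. Calls for 15 members held under all 15 alternatives: 8 rises (CHST3, CHST7, CHST11, EXTL3, HS6ST1, SULF2, UGDH and SLC26A2) and 7 falls (XYLT2, B4GALT7, CSGALNACT1, CSGALNACT2, CHSY1, CHST15 and HAS2).

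**Figure D1:**
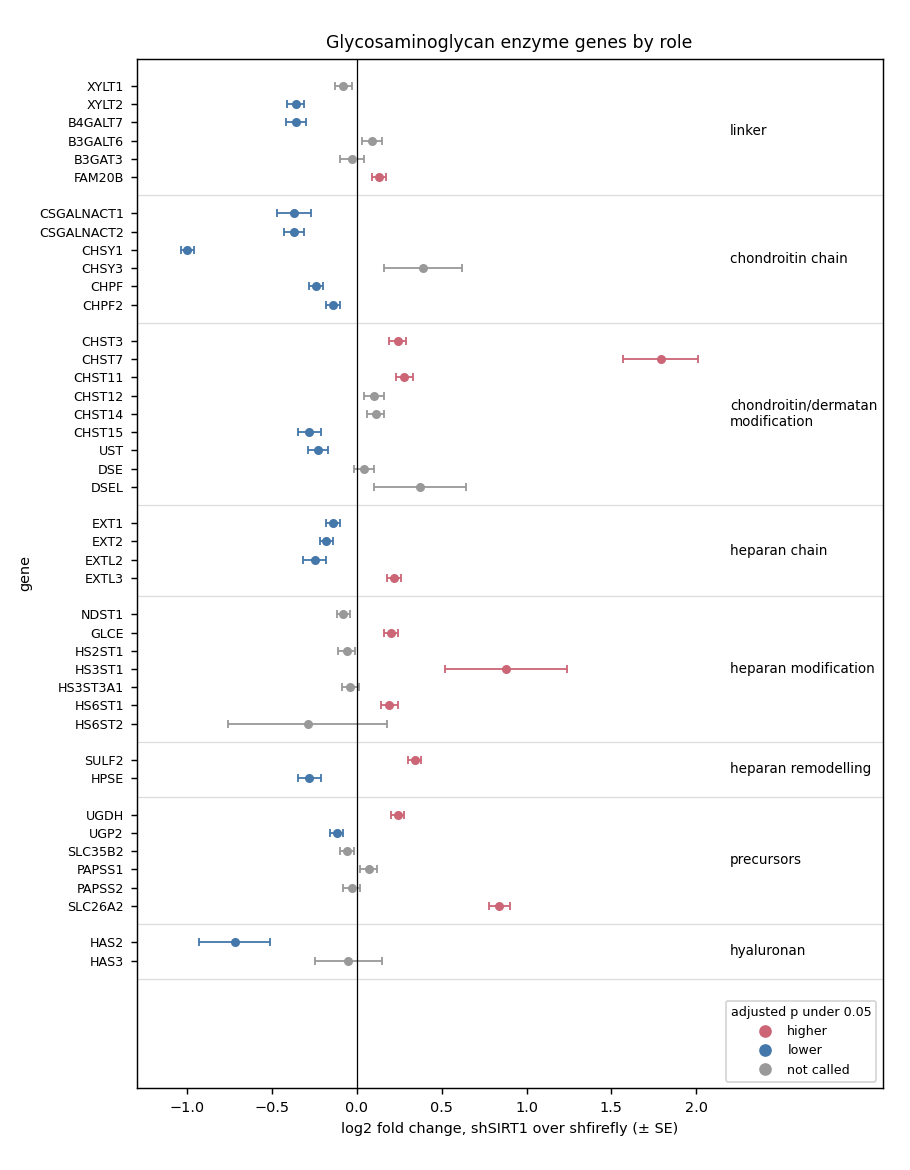
Log2 fold change of the 42 tested members, shSIRT1 over shfirefly, with bars of 1 SE, ordered by role; red and blue points passed at an adjusted p under 0.05 (edgeR). CHST7 lies farthest to the right at 1.79 and CHSY1 farthest to the left at -1.0, and most other points lie within 0.4 of 0.

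Levels of different genes were compared per kilobase of merged exons. On that scale the most abundant shfirefly transcripts in their roles were CHPF at 57.9 CPM per kb among chondroitin chain genes, EXT2 at 43.1 among heparan chain genes, NDST1 at 35 among heparan modifiers and SLC35B2 at 33.2 among precursor genes. XYLT2 led the linker genes at 16.3, SULF2 the remodelling genes at 16.2 and CHST14 the chondroitin and dermatan modifiers at 14.9 CPM per kb. The hyaluronan synthases were far lower, with HAS2 at 0.573 and HAS3 at 0.342 CPM per kb. The same genes led each role when the longest transcript was used as the length, with values up to 66.0 CPM per kb for EXT2. In raw CPM, 32 members had 20 CPM or more in every library and 9 stayed under 3 CPM in every library.

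**Figure D2:**
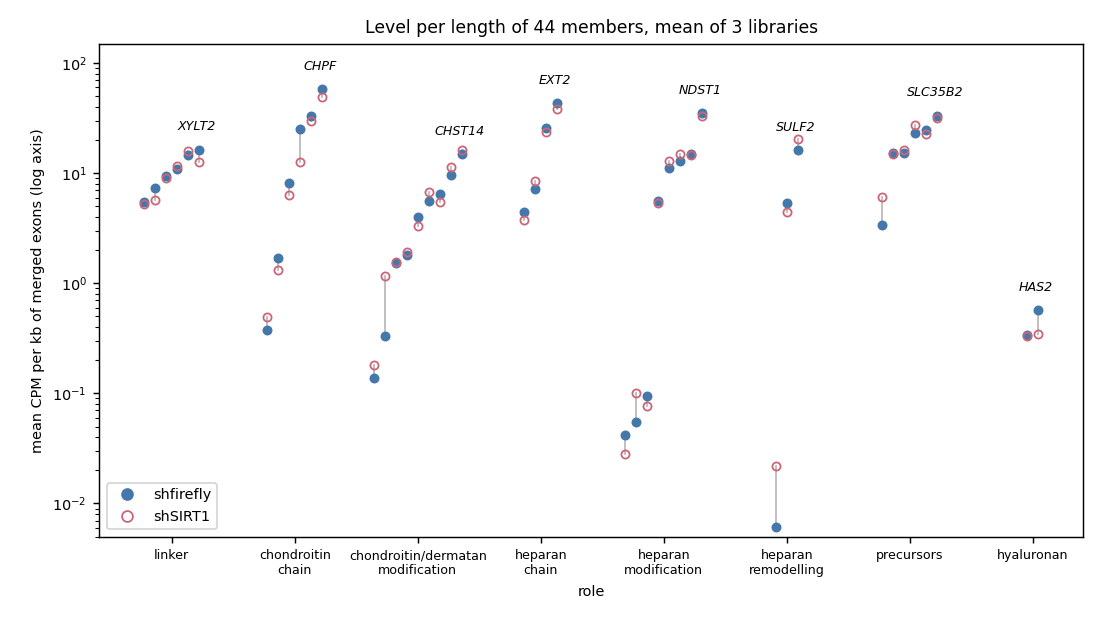
Mean level per kilobase of merged exons for all 44 members by role (log axis; filled points shfirefly, open points shSIRT1, each the mean of 3 libraries). Both hyaluronan synthases lie below 0.6 CPM per kb, under the leading gene of every other role, and CHST7 and CHSY1 show visible gaps between groups.

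Of the 6 genes that start or lengthen chondroitin 5 fell and none rose (83.3% lower, beside 26.0% of all genes tested). Their median log2 fold change was -0.30. After correction for GC content and length 3 fell. CHSY1, which adds both sugars of the chondroitin repeat, stood at 142, 139.5 and 138 CPM in the shfirefly libraries and at 67.7, 73.9 and 68.6 CPM in the shSIRT1 libraries. All shSIRT1 libraries were thus well below all shfirefly libraries, with means of 70.1 ± 3.30 and 140.0 ± 2.25 CPM (SD, n = 3). The log2 fold change was -1.0 ± 0.04 SE (edgeR adjusted p = 7.1e-14), and it lay between -1.05 and -0.88 under the alternatives. The gene lies on chromosome 15, reverse strand, from 101175723 to 101251932 (GRCh38).

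CHPF, the partner that chondroitin synthases need to polymerise, was the most abundant of these genes per length. It had 192, 199 and 192 CPM in shfirefly and 173, 162 and 159 CPM in shSIRT1, with no overlap (log2 fold change -0.24 ± 0.04 SE, edgeR adjusted p = 3.6e-05). Its relative CHPF2 fell by 0.14 on the log2 scale (SE 0.04, edgeR adjusted p = 0.0047). After correction for GC content and length, CHPF had a log2 fold change of -0.07 (adjusted p = 0.18) and CHPF2 of -0.02 (adjusted p = 0.72). CHPF2 was also at -0.02 (adjusted p = 0.63) with library totals. CSGALNACT1 and CSGALNACT2, which add the first galactosamine and so commit a linker to chondroitin, fell by the same amount, 0.37 on the log2 scale (edgeR adjusted p = 0.0039 and 2.2e-05). CHSY3, a further synthase, was scarce at 0.977 to 1.77 CPM in shfirefly and 1.86 to 2.06 CPM in shSIRT1 and did not pass the test (log2 fold change 0.39 ± 0.23 SE, adjusted p = 0.16).

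Summed per length, transcripts of the 6 chondroitin chain genes came to 126, 128 and 125 CPM per kb in shfirefly. In shSIRT1 they came to 103, 100.1 and 96.3 CPM per kb. Without CHSY1 the sums were 100.1, 103 and 101 against 90.7, 86.8 and 84.0 CPM per kb. The groups stayed apart in both sums, and CHSY1 supplied about as much of the difference as the other 5 genes did together. These sums are given as a description, with no test.

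The genes that sulfate and epimerise chondroitin and dermatan parted in direction. Of the 9, 3 rose (33.3%, beside 26.8% of all genes), 2 fell (22.2%, beside 26.0%) and 4 did not pass. With library totals 6 rose and 1 fell. CHST7, a chondroitin 6-O-sulfotransferase, had the largest change of the 42 tested members. It was at 0.782, 0.740 and 0.774 CPM in shfirefly and at 2.58, 2.61 and 2.83 CPM in shSIRT1, and no libraries overlapped. That is 68 reads in all against 233, a log2 fold change of 1.79 ± 0.22 SE (edgeR adjusted p = 4.5e-07). Counting error alone allowed a ratio of 2.64 to 4.62 (95% exact interval). Even so, at 1.17 CPM per kb in shSIRT1 it stayed below CHST3, which adds sulfate at the same carbon and was at 11.4 CPM per kb. The gene lies on chromosome X, forward strand, from 46573784 to 46598408 (GRCh38).

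CHST3 itself rose by less, from 66.9, 68.0 and 67.7 to 81.6, 84.1 and 73.4 CPM (log2 fold change 0.24 ± 0.05 SE, edgeR adjusted p = 3.1e-04). CHST11, the main 4-O-sulfotransferase of cartilage chondroitin, rose by 0.28 ± 0.05 SE on the log2 scale (edgeR adjusted p = 1.2e-04). Both thus rose modestly and to a like degree. CHST15, which adds a further sulfate to make disulfated chondroitin, had the largest fall of this group. It went from 27.6, 26.4 and 25.5 to 22.9, 21.8 and 20.6 CPM (log2 fold change -0.28 ± 0.07 SE, edgeR adjusted p = 0.001). UST, a uronyl 2-O-sulfotransferase, fell by 0.23 on the log2 scale (edgeR adjusted p = 0.0038), a call that was lost with library totals as scaling (-0.11, adjusted p = 0.14).

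CHST14, which sulfates dermatan, was the most abundant of these genes per length. It had 52.5, 54.9 and 52.3 CPM in shfirefly and 57.8, 56.1 and 58.7 CPM in shSIRT1. The groups did not overlap, but the difference just missed the threshold (log2 fold change 0.11 ± 0.05 SE, edgeR adjusted p = 0.052), and 4 alternatives put it past, with up to 0.23 for library totals. The other 4-O-sulfotransferase CHST12 (0.10 ± 0.06 SE) and the dermatan epimerases DSE (0.04 ± 0.06 SE) and DSEL (0.37 ± 0.27 SE) did not pass. DSEL was scarce, at 0.879 to 2.06 CPM over the 6 libraries.

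**Figure D3:**
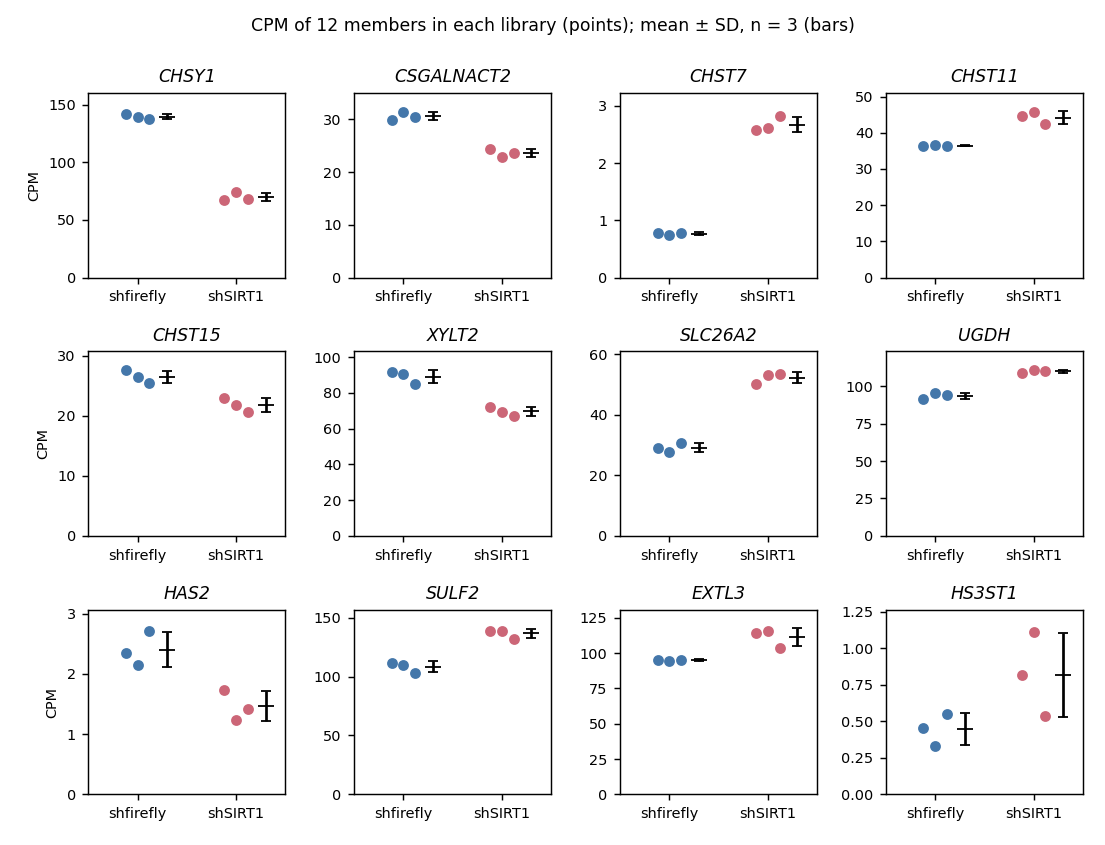
CPM of 12 members in each library (points) with mean and SD (bars, n = 3); every vertical axis starts at 0. The groups are separate for 11 of the genes shown and overlap for HS3ST1, where shSIRT1 spans 0.535 to 1.11 CPM.

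Of the precursor genes SLC26A2 changed most. SLC26A2, the sulfate transporter of the plasma membrane that is mutated in diastrophic dysplasia, had 29.1, 27.8 and 30.6 CPM in shfirefly and 50.2, 53.1 and 53.6 CPM in shSIRT1. Every shSIRT1 library was above every shfirefly library, with a log2 fold change of 0.84 ± 0.06 SE (edgeR adjusted p = 4.9e-11) and 0.68 to 0.96 under the alternatives. The gene lies on chromosome 5, forward strand, from 149960737 to 149993455 (GRCh38). The 3 members that make or carry activated sulfate did not pass the test, although PAPSS1 did with library totals (0.19, adjusted p = 0.0088) and without shfirefly replicate 3 (0.12, adjusted p = 0.048). SLC35B2 passed with upper-quartile factors (-0.11, adjusted p = 0.026). PAPSS1 and PAPSS2, which make the sulfate donor PAPS, had log2 fold changes of 0.07 ± 0.05 and -0.03 ± 0.05 SE. SLC35B2, which carries PAPS into the Golgi and led the precursor genes per length, had 77.6, 79.2 and 78.4 CPM in shfirefly and 74.9, 75.4 and 74.6 CPM in shSIRT1. Its ranges did not overlap, but the difference was small (log2 fold change -0.06 ± 0.04 SE, edgeR adjusted p = 0.21) and turned to 0.06 with library totals and also with the GC and length correction.

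Sugar nucleotide genes moved in opposite directions. UGDH, which makes UDP-glucuronate for every chain, rose by 0.24 ± 0.04 SE on the log2 scale, from 93.6 ± 2.13 to 110.2 ± 1.05 CPM (SD, n = 3; edgeR adjusted p = 3.6e-05). UGP2, which supplies its substrate UDP-glucose, had 159, 162 and 158 CPM in shfirefly and 144, 143 and 154 CPM in shSIRT1. It fell by 0.12 on the log2 scale (SE 0.04, edgeR adjusted p = 0.017), but the value was 0.00 with library totals. The call for UGP2 was also lost without shfirefly replicate 2, without shSIRT1 replicate 1 and without shSIRT1 replicate 2 (adjusted p up to 0.085 among these).

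Promoter windows are printed for CHSY1, CHST7 and SLC26A2, which had the largest called changes among members above 1 CPM with a window in RefSeq's table. Each is the 250 bases before the annotated start, 5′ to 3′ on the gene's strand (RefSeq, GRCh38.p14), at chr15:101252049-101252298 (reverse), chrX:46573515-46573764 (forward) and chr5:149960508-149960757 (forward). Capitals mark ACGTG or GCGTG on either strand, the core letters that HIF factors bind.
CHSY1: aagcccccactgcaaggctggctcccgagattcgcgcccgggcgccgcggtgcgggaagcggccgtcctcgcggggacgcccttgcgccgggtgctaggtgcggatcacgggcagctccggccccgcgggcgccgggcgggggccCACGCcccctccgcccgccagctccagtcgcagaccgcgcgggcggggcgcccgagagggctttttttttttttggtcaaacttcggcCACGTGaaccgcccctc
CHST7: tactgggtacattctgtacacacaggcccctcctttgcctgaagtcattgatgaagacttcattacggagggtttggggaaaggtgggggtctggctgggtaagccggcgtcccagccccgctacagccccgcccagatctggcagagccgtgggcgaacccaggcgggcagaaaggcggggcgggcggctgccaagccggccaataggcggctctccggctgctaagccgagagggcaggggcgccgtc
SLC26A2: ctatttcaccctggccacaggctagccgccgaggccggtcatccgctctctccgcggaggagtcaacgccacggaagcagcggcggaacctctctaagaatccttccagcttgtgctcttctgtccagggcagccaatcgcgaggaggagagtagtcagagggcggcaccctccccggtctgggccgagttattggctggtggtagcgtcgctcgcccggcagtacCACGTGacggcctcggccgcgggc
CHSY1 held 3 matches and SLC26A2 held 2, counted per strand, so that the palindrome CACGTG counts on both. CHST7 held none of these letters in its window. A gene that fell and a gene that rose thus both carried CACGTG close to the start. Over all 35116 windows of this length 43.2% held a match, and their median content of G and C was 58.0%. Windows were found for 38 of 44 members, 55 in all, of which 56.4% held a match at a median G and C content of 68.8%. Among windows of members that fell 13 of 18 held a match, from 12 genes. Among those of members that rose 6 of 15 did, from 10 genes. Among those of members tested and not called 12 of 20 did, from 15 genes. Genes with more than 1 window count more than once, and the difference between these shares was not tested. These are letter matches in a short window and were not measured as binding sites.

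Hyaluronan synthases were scarce, and HAS2 was the member that fell. HAS2, the main synthase of mesenchymal cells, had 2.35, 2.15 and 2.71 CPM in shfirefly and 1.73, 1.24 and 1.41 CPM in shSIRT1. These are 214 reads against 128, and the groups did not overlap. The log2 fold change was -0.72 ± 0.21 SE (edgeR adjusted p = 0.0058), with -0.91 to -0.60 under the alternatives. HAS3, which makes shorter hyaluronan, was at 1.70 to 1.90 CPM in shfirefly and 1.60 to 1.89 CPM in shSIRT1. Its log2 fold change was -0.05 ± 0.20 SE (edgeR adjusted p = 0.85).

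Linker genes were mixed: 1 of 6 rose (16.7%, beside 26.8% of all genes), 2 fell (33.3%, beside 26.0%) and 3 did not pass. XYLT2, which like XYLT1 adds the xylose that starts chondroitin, dermatan and heparan sulfate chains, had 91.8, 90.3 and 85.1 CPM in shfirefly and 72.3, 69.5 and 67.0 CPM in shSIRT1. It fell by 0.36 on the log2 scale (SE 0.05, edgeR adjusted p = 1.1e-06), and the groups were well apart. XYLT1, the other xylosyltransferase, had 60.3 ± 0.629 and 57.2 ± 2.49 CPM (SD, n = 3) and did not pass (edgeR adjusted p = 0.19). With upper-quartile factors XYLT1 did pass, as a fall (log2 fold change -0.13, edgeR adjusted p = 0.032). B4GALT7, which adds the first galactose, had 35.1, 37.3 and 35.7 CPM in shfirefly and 28.1, 29 and 27.0 CPM in shSIRT1 (log2 fold change -0.36 ± 0.06 SE, edgeR adjusted p = 1.9e-05). The falls of XYLT2 and B4GALT7 were of the same size within their SE. FAM20B, the kinase that phosphorylates the xylose, had 86.7, 90.5 and 84.8 CPM in shfirefly and 95.7, 100.3 and 91.3 CPM in shSIRT1. It rose by 0.13 ± 0.04 SE (edgeR adjusted p = 0.015), a call lost under 5 alternatives, including without shfirefly replicate 1, without shfirefly replicate 3 and without shSIRT1 replicate 2 (adjusted p up to 0.12). B3GALT6 and B3GAT3, which add the second galactose and the glucuronic acid, had log2 fold changes of 0.09 ± 0.06 and -0.03 ± 0.07 SE. B3GALT6 passed with library totals (0.22, edgeR adjusted p = 0.0047). It also passed after correction for GC content and length (0.25, edgeR adjusted p = 0.0016).

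Of the 4 genes that start or lengthen heparan or act on its linker, 3 fell, beside 26.0% of all genes, and 1 rose, beside 26.8%. With library totals none of the 3 falls held. EXT1 and EXT2 form the copolymerase. EXT2 had 224, 233 and 226 CPM in shfirefly and 202, 200.1 and 199 CPM in shSIRT1, without overlap (log2 fold change -0.18 ± 0.04 SE, edgeR adjusted p = 1.8e-04; -0.06 and adjusted p = 0.11 with library totals). EXT1 fell by 0.14 on the log2 scale (SE 0.04, edgeR adjusted p = 0.0045) and was at -0.01 with library totals. EXTL2, which can transfer a sugar to the linker, had 21.8, 21.0 and 21.5 CPM in shfirefly and 18.4, 18.4 and 17.2 CPM in shSIRT1 (log2 fold change -0.25 ± 0.07 SE, edgeR adjusted p = 0.0042; -0.13 and adjusted p = 0.12 with library totals). EXTL3, which starts a heparan chain on the linker, rose under every scaling. It had 95.4, 94.7 and 95.5 CPM in shfirefly and 114, 116 and 104 CPM in shSIRT1 (log2 fold change 0.22 ± 0.04 SE, edgeR adjusted p = 2.2e-04).

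Heparan modification enzymes rose in 3 of 7 tested cases (42.9%, beside 26.8% of all genes). None fell, beside 26.0% of all genes. NDST1, which replaces acetyl groups with sulfate and so opens the way for later modifications, was the most abundant. It had 331, 339 and 330.1 CPM in shfirefly and 327, 322 and 297 CPM in shSIRT1, a difference that did not pass (log2 fold change -0.08 ± 0.04 SE, edgeR adjusted p = 0.09). It fell past the threshold with upper-quartile factors (-0.13, adjusted p = 0.0083) and just so without shSIRT1 replicate 1 (-0.11, adjusted p = 0.05). GLCE, the C5 epimerase, rose by 0.20 ± 0.04 SE on the log2 scale (edgeR adjusted p = 3.2e-04), but by 0.05 (adjusted p = 0.42) after correction for GC content and length. HS6ST1, a 6-O-sulfotransferase, rose from 52.7 ± 0.849 to 60.1 ± 1.97 CPM (SD, n = 3), a log2 difference of 0.19 ± 0.05 SE (edgeR adjusted p = 0.0017). Its relative HS6ST2 was near 0, with 42 reads in shfirefly and 34 in shSIRT1.

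HS3ST1, which makes the antithrombin-binding form of heparan, had the largest rise of this role but rests on few reads. It was at 0.456, 0.333 and 0.548 CPM in shfirefly and at 0.815, 1.11 and 0.535 CPM in shSIRT1. Replicate 3 of shSIRT1 lay below replicate 3 of shfirefly, so the groups overlapped. The log2 fold change was 0.88 ± 0.36 SE (edgeR adjusted p = 0.049), and 9 of 14 alternatives ended the call, among them DESeq2 (adjusted p = 0.17) and the fit without shSIRT1 replicate 2 (0.60, adjusted p = 0.26). The call also ended without shfirefly replicate 1, without shfirefly replicate 2 and without shSIRT1 replicate 1. HS2ST1 (-0.06 ± 0.05 SE) and HS3ST3A1 (-0.04 ± 0.05 SE) did not pass, though HS2ST1 stood at -0.27 (adjusted p = 2.5e-04) after correction for GC content and length.

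Genes that remodel finished heparan moved in opposite directions. SULF2, a secreted sulfatase that removes 6-O-sulfate, had 112, 109.7 and 103 CPM in shfirefly and 139, 139 and 132 CPM in shSIRT1. All shSIRT1 libraries were higher, and the log2 fold change was 0.34 ± 0.04 SE (edgeR adjusted p = 7.5e-07). HPSE, heparanase, had 27.0, 26.0 and 23.3 CPM in shfirefly and 20, 21.7 and 21.0 CPM in shSIRT1. It fell by 0.28 on the log2 scale (SE 0.07, edgeR adjusted p = 0.0019), or by 0.16 (adjusted p = 0.058) with library totals. SULF1, the other sulfatase, was barely detected, with 5 reads in shfirefly and 18 in shSIRT1, a ratio of 3.65 (95% exact interval 1.31 to 12.6, counting error only).

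By branch, 3 of 15 chondroitin and dermatan genes rose (20%) and 7 fell (46.7%), beside 26.8% and 26.0% of all genes, with a median log2 fold change of 0.04, although more of them fell than rose. In the heparan branch 5 of 13 tested genes rose (38.5%) and 4 fell (30.8%), with a median of -0.06. Of the 2 hyaluronan synthases 1 fell. The 12 shared linker and precursor genes had 3 rises and 3 falls and a median of -0.03. All of these medians lie close to the 0.00 of all genes tested, apart from the -0.38 of the hyaluronan pair. Falls in the chondroitin branch were in chain synthesis (5 of 6 genes) more than in modification (2 of 9). After correction for GC content and length they numbered 3 and 2. All 3 rises in the branch were sulfotransferases, and so were the 2 falls in modification. The difference between branches was not tested.

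Ratios of 2 genes counted in the same library do not depend on scaling between libraries. Of 10 pairs of genes that act at like steps, 7 had at least 10 reads for both genes in every library. The ratio of HAS2 to HAS3 was 1.29, 1.26 and 1.42 in shfirefly and 1.08, 0.655 and 0.804 in shSIRT1. The ratio of XYLT1 to XYLT2 was 0.662, 0.671 and 0.700 in shfirefly and 0.781, 0.862 and 0.823 in shSIRT1. That of CHPF to CHPF2 was 1.39, 1.43 and 1.37 against 1.35, 1.25 and 1.33. In these 3 pairs the groups did not overlap, which gives an exact two-sided permutation p = 0.1, the smallest that 3 against 3 allows, and 0.23 when adjusted over the 7 pairs. Other pairs overlapped, and CSGALNACT1 to CSGALNACT2 differed by 0.00 on the log2 scale between groups (exact permutation p = 1).

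**Figure D4:**
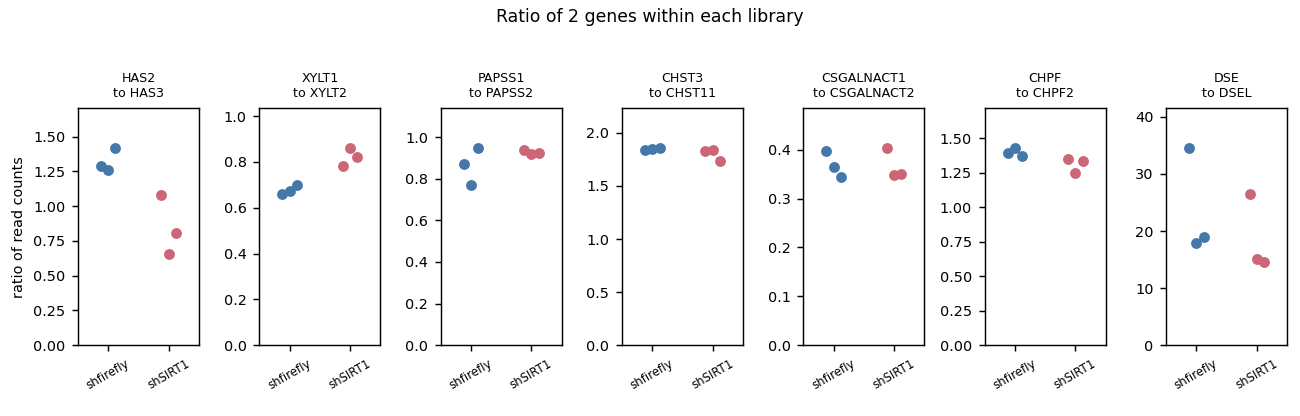
Ratio of read counts of 2 genes within each library, for 7 pairs (points are libraries; each axis starts at 0). Groups separate for HAS2 to HAS3, XYLT1 to XYLT2 and CHPF to CHPF2, and overlap for the other 4 pairs.

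Among genes of the pathway outside the 44, those for breakdown were mostly lower. Of 14 tested lysosomal degradation genes 10 fell (71.4%, beside 26.0% of all genes), none rose and 4 did not pass, with a median log2 fold change of -0.33; with library totals, and with the GC and length correction, 1 rose. HEXA, a hexosaminidase subunit, fell from 77.5, 84.3 and 72.5 to 48.4, 49.0 and 52.6 CPM (log2 fold change -0.64 ± 0.05 SE, edgeR adjusted p = 3.9e-09). GALNS, which removes sulfate from chondroitin and keratan, fell from 73.1, 76.2 and 68.2 to 52.2, 47.3 and 45.7 CPM (log2 fold change -0.58 ± 0.06 SE, edgeR adjusted p = 1.8e-08). Both genes were lower in all shSIRT1 libraries.

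Genes of hyaluronan turnover and receptors moved in both directions. Of 7 tested 3 fell (42.9%, beside 26.0% of all genes) and 2 rose (28.6%, beside 26.8%). CEMIP, which drives the breakdown of hyaluronan at the cell surface, fell from 171, 171 and 147 to 56.6, 47.9 and 48.4 CPM (log2 fold change -1.68 ± 0.08 SE, edgeR adjusted p = 8.4e-07). The hyaluronidase genes parted, since HYAL2 rose from 10 ± 0.617 to 16 ± 0.710 CPM and HYAL3 fell from 12.1 ± 0.367 to 7.54 ± 0.286 CPM (SD, n = 3; edgeR adjusted p = 6.9e-07 and 2.1e-06). The 2 receptor genes of the list moved in opposite directions. CD44 fell from 1420.1 ± 25.3 to 1133 ± 4.18 CPM (SD, n = 3), a log2 fold change of -0.33 ± 0.03 SE (edgeR adjusted p = 4.7e-08). HMMR, a hyaluronan receptor that also serves the mitotic spindle, had 38.2, 37.9 and 59.4 CPM in shfirefly and 99.1, 85.4 and 113 CPM in shSIRT1. Its replicate 3 was the highest of each group, and the call (log2 fold change 1.13 ± 0.24 SE, edgeR adjusted p = 0.018) was lost in 4 of 6 fits that left a library out, those lacking replicates 1 or 2 of shfirefly and 1 or 3 of shSIRT1 (adjusted p 0.057 to 0.063).

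Precursor genes outside the 44 were split, with 4 of 13 higher (30.8%, beside 26.8% of all genes) and 6 lower (46.2%, beside 26.0%). With library totals 3 of them were lower. The rises numbered 2 without shfirefly replicate 1 and 2 without shSIRT1 replicate 2. SLC35D1, which carries UDP-glucuronate and UDP-N-acetylgalactosamine into the endoplasmic reticulum, stood at 13.6 ± 0.374 CPM in shfirefly and rose to 20.1 ± 1.90 CPM (SD, n = 3) in shSIRT1 (log2 fold change 0.57 ± 0.08 SE, edgeR adjusted p = 4.2e-06). GNPNAT1, of UDP-N-acetylglucosamine synthesis, rose by 0.40 ± 0.05 SE. IMPAD1, which clears the by-product of sulfation in the Golgi, stood at 335 ± 8.65 CPM in shfirefly and fell to 243 ± 1.32 CPM (SD, n = 3) in shSIRT1 (log2 fold change -0.46 ± 0.04 SE, edgeR adjusted p = 5.8e-10). SLC26A1, another sulfate transporter, fell from 1.47, 0.444 and 1.03 to 0.196, 0.424 and 0.229 CPM (log2 fold change -1.78 ± 0.45 SE, edgeR adjusted p = 0.0022), the opposite direction to SLC26A2 at a far lower level. Its span overlaps that of the lysosomal gene IDUA on the other strand, which had 8.93 CPM in shfirefly and also fell (log2 fold change -0.47). Reads of SLC26A1 and IDUA may be mixed, and overlap of exons was looked at for the 44 members only. Of 13 other synthesis genes only 4 passed the filter. HS3ST3B1, a 3-O-sulfotransferase, fell by 0.42 on the log2 scale (SE 0.07, edgeR adjusted p = 1.9e-05). PXYLP1, the xylose phosphatase that opposes FAM20B, and UXS1, which makes UDP-xylose, rose by 0.38 ± 0.14 and 0.15 ± 0.05 SE (edgeR adjusted p = 0.026 and 0.021), and with DESeq2 both calls were lost (adjusted p = 0.095 and 0.059). They were also lost without shfirefly replicate 1 (adjusted p = 0.21 and 0.07) and without shSIRT1 replicate 2 (adjusted p = 0.093 and 0.18), and that of PXYLP1 without shSIRT1 replicate 1 (adjusted p = 0.053).

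**Figure D5:**
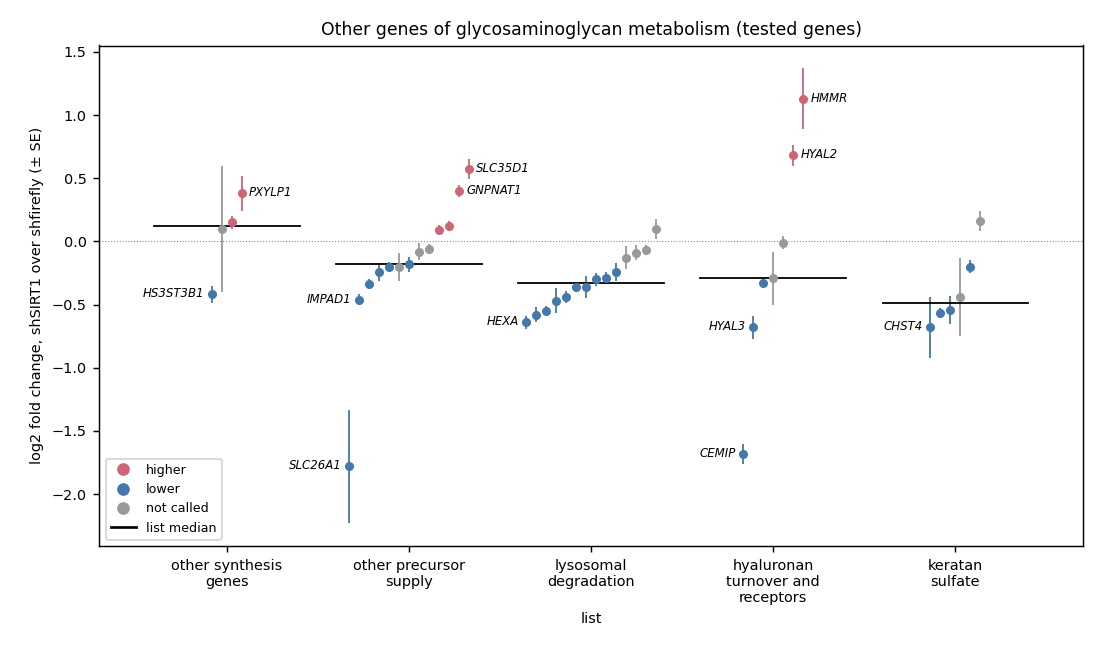
Log2 fold change (± SE) of tested pathway genes outside the 44, in 5 lists, with the list median as a black line and colours as calls at an adjusted p under 0.05 (edgeR). Lysosomal genes lie mostly below 0 with a median of -0.33, and CEMIP at -1.68 and HMMR at 1.13 mark the ends of the hyaluronan list.

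In the authors' deposited table, 41 of the 42 tested members lay on the same side of an adjusted p of 0.05 and had the same sign. The exception was HS3ST1, with an adjusted p of 0.17 in the authors' deposited table. Exons of 5 members coincide in part with those of a neighbour transcribed the same way, and exons of 17 with a gene transcribed the opposite way. The latter include 10 called members, CHPF, SULF2, SLC26A2 and HAS2 among them. Whether counting used the strand is not stated, so reads of those genes and their partners may be mixed.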

How the data were processed

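RNA was sequenced from SW1353 cells in 6 libraries, 3 per group. A stranded mRNA kit was used, per the labels' protocols. Trimmomatic, STAR, DESeq2 and the build GRCh38 are named, per the submitters' processing notes; the sources used here do not name the read counter, the annotation release or the use of strand. The deposited table holds raw read counts per gene, and these alone entered the tests. It also holds the authors' normalized counts, rounded to whole numbers and treated as a score, and the authors' DESeq2 comparison, with its fold change as a linear ratio and on the log2 scale. The authors' p-value columns, raw and adjusted, are also there, with mean counts, a test statistic, and dispersion and other values of the fit. Columns were matched to samples by name.

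Genes were filtered with edgeR 4.0.16 filterByExpr (16591 of 60691 kept), scaled by TMM and tested with the quasi-likelihood F test (robust fit, group alone). Benjamini-Hochberg adjustment ran across every tested gene, with a threshold of 0.05 for a rise or fall. CPM values are counts over TMM-scaled library sizes. The SE of a log2 fold change is its absolute value over the square root of F. Coordinates and exon lengths came from GENCODE 29, matched by Ensembl identifier, whose gene boundaries need not be those of the authors' annotation. The procedure was also run on simulated data in which few genes were changed, as many up as down. In the real data 52.8% of genes were called, so that run cannot judge the choice of scaling.

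The members and gene lists were chosen with earlier results of these data known. Values in every library are given for members with an adjusted p under 0.05, an absolute log2 fold change of at least 0.5 and a mean of at least 1 CPM. They are also given for the largest called rise and fall and the most abundant member per length in each role. From each list of other genes, up to 2 called genes in each direction with the largest change are named. CD44 and IDUA are named besides these. Alternatives were RLE, upper-quartile and total-count scaling, an offset fitted to GC content and transcript length, DESeq2 1.42.0, 2 other filters, the replicate number as a block, a fit without robust estimation, and leaving out each library in turn.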

Additional observations from a re-analysis of the deposited data

How the results depend on the processing

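The counts of genes called were within 1.5 times the main counts under every alternative, but scaling changed the split: 4449 genes were higher and 4311 lower with TMM, 6225 and 3021 with library totals, and 3813 and 4984 with upper-quartile factors. For the members the split was 11 and 15 with TMM, 16 and 8 with library totals, and 9 and 18 with upper-quartile factors. Leaving out a library in turn gave 9 to 11 members higher and 14 to 15 lower. With library totals the sign turned for XYLT1 (0.05), B3GAT3 (0.09), NDST1 (0.04), HS2ST1 (0.06), HS3ST3A1 (0.08), UGP2 (0.00), SLC35B2 (0.06), PAPSS2 (0.09) and HAS3 (0.07), all log2 fold changes; of these UGP2 had been called. Under the GC and length offset it turned for B3GAT3 (0.13), DSE (-0.14), HS3ST3A1 (0.10), SLC35B2 (0.06), PAPSS2 (0.01) and HAS3 (0.03), with upper-quartile factors for DSE (-0.01), and in fits without a library for B3GAT3 (-0.05 to 0.01), HAS3 (-0.11 to 0.01) and HS6ST2 (-1.03 to 0.14), none of them called. The log2 ratio of CSGALNACT1 to CSGALNACT2 differed between groups by -0.07 to 0.05 without a library. Of the 13 other synthesis genes 3 were called, but 1 with upper-quartile factors, 1 with DESeq2 and 1 to 3 without a library. The cause of these shifts was not tested. Depth limits the members under 3 CPM, where SE reached 0.47. Same-numbered libraries of the 2 groups correlated at -0.0102, -0.0666 and 0.132 in their deviations, so the numbers were not taken as pairs, and only replicate 3 correlated best with its own number; the replicate block gave 11 members higher and 16 lower, with 4711 and 4465 of all genes, and its other calls that differed were CHST14 and NDST1 (gained) and HS3ST1 (lost).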

Other observations

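Keratan sulfate, the third sulfated chain of cartilage, has its own enzymes. Of 9 genes listed for it 6 were tested, 4 fell and none rose, with a median log2 fold change of -0.49, beside 26.0% of all genes tested that fell. With library totals 2 fell and 1 rose, and without shSIRT1 replicate 1 also 1 rose. B4GALT1, a galactosyltransferase that serves many glycans, fell from 388, 407 and 359 CPM in shfirefly to 272, 253 and 253 CPM in shSIRT1 (log2 fold change -0.57 ± 0.04 SE, edgeR adjusted p = 3.5e-09). CHST4, a sulfotransferase, had 1.58 ± 0.0891 CPM in shfirefly and 0.974 ± 0.149 CPM in shSIRT1 (SD, n = 3). It fell by 0.68 on the log2 scale (SE 0.24, edgeR adjusted p = 0.022), a call lost with DESeq2 (adjusted p = 0.1), with library totals, without shfirefly replicate 3 and without shSIRT1 replicate 3.

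NDST2, a sulfotransferase of heparan, had 12, 0 and 6 reads in shfirefly and 7, 4 and 1 in shSIRT1, beside 7773 to 10231 reads per library for NDST1. In GENCODE 29, 82.9% of the exon bases of NDST2 (3857 of 4654) are shared with another protein-coding gene on the same strand, listed in the table as AC022400.7. That gene had 0 to 4 reads per library. Whether reads that fall in both genes were left out of both was not tested, so the NDST2 value is uncertain and its low level is not reported as low expression.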
